A study of Mus musculus with 6 samples.

Results

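The 9 genes described here encode tenascins (Tnc, Tnxb), the fasciclin-domain proteins periostin (Postn) and transforming growth factor beta-induced protein (Tgfbi), SPARC and its relative hevin (Sparc, Sparcl1), fibronectin (Fn1) and extracellular matrix proteins 1 and 2 (Ecm1, Ecm2). They were taken by gene symbol, and all 9 were among the 52997 symbols of the count table. Of these, 8 passed the filter on low counts and were tested among 10823 genes, and Tnc did not. The study measured messenger RNA of mesenchymal stromal cells, which make connective tissue matrix, of 8-week-old C57BL/6 mice at rest, with no treatment or genetic change given. Cells of hindlimb skeletal muscle (3 libraries) were compared with cells of lymph nodes (3 libraries) from cervical, brachial, axillary and inguinal sites combined. Each library was made from 1000 cells that were sorted and then sorted again, by markers the labels do not name. The submitters call the libraries biological replicates, but 2 muscle titles share a number, so p-values measure the spread between libraries, which may not be separate animals. Libraries carry the numbers of their count columns, 2 to 4 for muscle and 1 to 3 for lymph node.

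Most of these proteins are matricellular: they are secreted into the matrix but act on cells, by changing how cells bind matrix, more than as load-bearing fibres. Fibronectin is the main exception, a large adhesive protein that cells assemble into fibrils through integrins and on which collagen, fibrillin and other proteins are laid down. In adult muscle, tenascin-C and periostin are best known from tendon and from tissue that is growing or healing, while tenascin-X is a steady part of loose and dense connective tissue whose loss causes a form of Ehlers-Danlos syndrome. Fibronectin fibres are also part of the reticular network of lymph nodes.

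Total gene counts ran from 415460 to 2397134 per library, with muscle library 4 the lowest. All 10 stromal markers examined, among them Pdgfra, Col1a1, Dcn and Cd34, had counts in every library, with summed levels of 34899 to 43847 CPM for muscle and 45794 to 56475 CPM for lymph node (CPM, counts scaled to 1e+06 counts of the library's TMM-normalised size). Muscle library 4 stood apart: 10 T cell markers summed to 452 CPM there and to between 5.71 and 14.8 CPM elsewhere, 8 B cell markers to 3016 CPM against 19.4 to 277 CPM, and 10 myeloid markers to 712 CPM against 15.8 to 30.5 CPM. Of that last sum 589 CPM were Ptprc, which all leukocytes including T and B cells express, 83.3 CPM were Lyz2 and 26.9 CPM were Tyrobp. Adgre1 and Fcer1g had 2 counts each there, C1qb had 1, and Csf1r, Cd68, Itgam and C1qa had 0. In the library with the fewest total counts, 0 counts do not show that a transcript was absent. Which leukocytes were present was not tested. Fold changes of the 9 genes are therefore given with and without this library. In sorted bulk cells, a lower level from fewer cells making a transcript and from less transcript per cell cannot be told apart.

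Between tissues, 2 of the 8 tested genes were called different: Postn was 2.77-fold lower and Tgfbi 2.34-fold higher in muscle cells. The test was edgeR's quasi-likelihood test, two-sided, with p-values adjusted by Benjamini and Hochberg's method over all tested genes and a threshold of 0.05. Over all tested genes 4.32% were called, 1.46% higher and 2.86% lower in muscle. With muscle library 4 left out, Tnxb, higher in muscle, and Ecm1, lower, were called as well, which made 4 of 8 beside 12.4% of all tested genes (4.79% higher, 7.58% lower). In 5 of the 8 genes no muscle library overlapped a lymph node library, with 4 genes lower in muscle (Postn, Fn1, Ecm1, Ecm2) and 1 higher (Tgfbi), beside 23.6% of all tested genes (13.7% lower). The median log2 fold change of the 8, muscle minus lymph node, was -0.35, beside 0.02 over all tested genes.

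**Figure D1:**
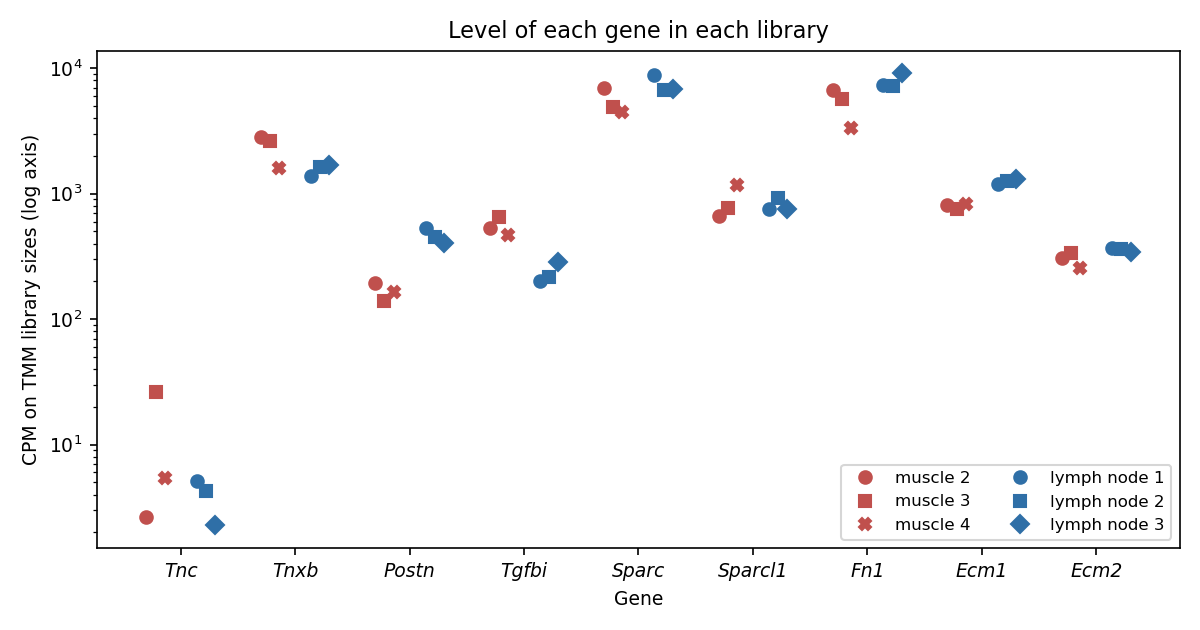
Level of each of the 9 genes in each library, in CPM on TMM library sizes (log axis), with red symbols for muscle and blue symbols for lymph node libraries. Postn lies lower and Tgfbi higher in all 3 muscle libraries, Sparc and Fn1 are the most abundant by CPM, and Tnc is at or below 26.1 CPM everywhere.

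Periostin and the Tgfbi product are the pair of secreted proteins built mainly from fasciclin domains. Both bind collagen and integrins, and both are named for or known as genes that transforming growth factor beta can switch on. Postn lies on chromosome 3 from 54361109 to 54391037 and Tgfbi on chromosome 13 from 56609523 to 56639562 (GRCm38, GENCODE release M21), so they are not neighbours. Their RefSeq promoter windows (GRCm38.p6, 250 bases before to 50 after the start site, gene strand, 5′ to 3′) are shown because these are the 2 genes called, in opposite directions. Capitals mark every match, on either strand, to TATAAA (the TATA box), to GGGCGG (a GC box), to TGANTCA (an AP-1 site) or to CCAAT. No match overlapped another motif's match in these windows.
Postn, chr3:54360857-54361156, plus strand: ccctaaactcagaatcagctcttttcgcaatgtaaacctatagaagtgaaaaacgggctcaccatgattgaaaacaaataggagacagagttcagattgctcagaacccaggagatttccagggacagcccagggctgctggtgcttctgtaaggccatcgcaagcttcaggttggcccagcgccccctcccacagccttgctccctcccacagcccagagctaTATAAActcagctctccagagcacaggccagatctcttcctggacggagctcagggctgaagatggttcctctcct
Tgfbi, chr13:56609336-56609635, plus strand: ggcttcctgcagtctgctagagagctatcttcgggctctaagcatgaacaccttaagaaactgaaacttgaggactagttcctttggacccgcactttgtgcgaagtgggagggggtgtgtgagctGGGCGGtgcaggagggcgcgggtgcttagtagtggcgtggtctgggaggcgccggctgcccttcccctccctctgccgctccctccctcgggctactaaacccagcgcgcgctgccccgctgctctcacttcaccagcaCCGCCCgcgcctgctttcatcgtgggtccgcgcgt
The Postn window holds a single match, a TATA box that begins 26 bases before the start site. The Tgfbi window holds GC boxes and no TATA match, with the upstream GC box beginning 124 bases before the start site. Its GC content is 63.3%, against 53% in the Postn window. Of 32851 promoter windows of all genes, 13.6% held the TATA letters, 35.7% a GC box, 7.81% the AP-1 letters and 37.4% the letters CCAAT. A match is a description of these letters and does not show that a factor binds. A second RefSeq window of Postn, at an upstream start site, is not printed.

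Postn measured 196, 139 and 164 CPM in muscle libraries 2, 3 and 4 and 532, 454 and 402 CPM in lymph node libraries 1, 2 and 3. The highest muscle library was below the lowest lymph node library. The means were 166 ± 28.4 CPM for muscle and 462 ± 65.5 CPM for lymph node (SD, n = 3 each), a log2 fold change of -1.47 ± 0.20 (SE, edgeR adjusted p = 0.00414). The call held without muscle library 4 (-1.46, edgeR adjusted p = 6.77e-05) and without any other single library, with an adjusted p of at most 0.0398.

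Tgfbi measured 531, 649 and 465 CPM in muscle libraries 2, 3 and 4 and 201, 217 and 286 CPM in lymph node libraries 1, 2 and 3. Here the order of the tissues was the opposite one, again without overlap. The means were 549 ± 93.4 CPM for muscle and 235 ± 45.3 CPM for lymph node (SD, n = 3 each), a log2 fold change of 1.23 ± 0.21 (SE, edgeR adjusted p = 0.0109). The change was 1.32 when muscle library 4 was left out (edgeR adjusted p = 6.91e-05). The call was lost without muscle library 2 or 3 (edgeR adjusted p = 0.0507 and 0.0641) or without lymph node library 1 or 2 (0.0933 and 0.128), with a change between 1.07 and 1.23 in these fits.

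A ratio of 2 genes within a library does not depend on how libraries are scaled to each other. Postn counts were 0.369, 0.215 and 0.354 times the Tgfbi counts in muscle libraries 2, 3 and 4 and 2.64, 2.09 and 1.40 times in lymph node libraries 1, 2 and 3. Tgfbi thus had more counts than Postn in each muscle library and fewer in each lymph node library. The mean log2 ratio differed by -2.70 between tissues, muscle minus lymph node (exact two-sided permutation test p = 0.10, the smallest that 3 against 3 libraries can give, adjusted p = 0.20 over the 4 pairs compared), and by -2.81 when muscle library 4 was left out. Per exon length the pair had means of 19.1 ± 3.26 (Postn) and 145 ± 24.8 (Tgfbi) reads per kilobase of exon and 1e+06 counts (RPKM) in muscle, and of 53.1 ± 7.52 and 62.3 ± 12.0 RPKM in lymph node (SD, n = 3 each). On this scale the levels of the pair overlapped in lymph node and were far apart in muscle.

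**Figure D2:**
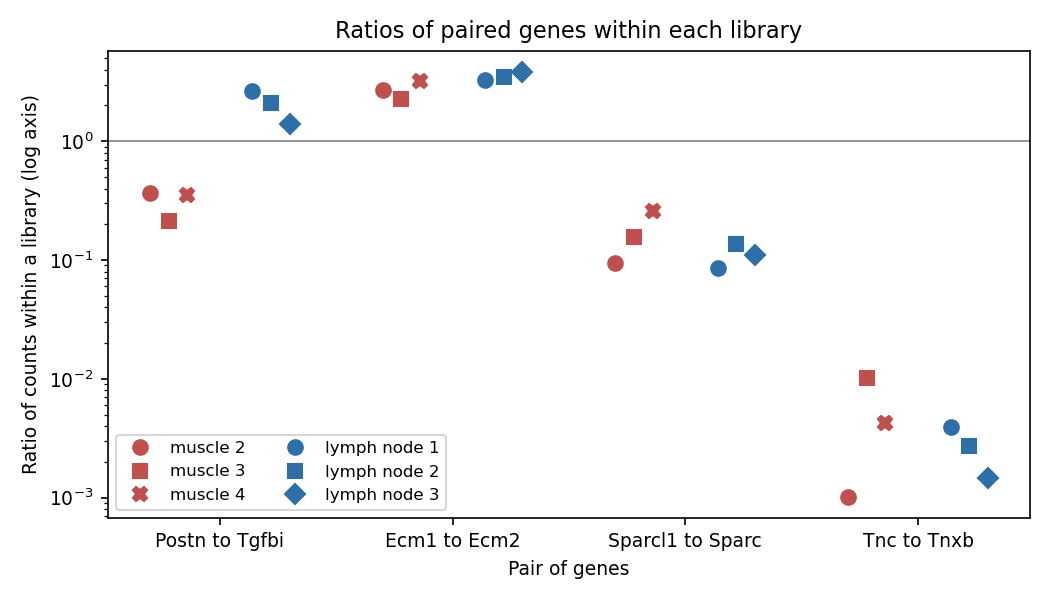
Ratio of the counts of 4 gene pairs within each library (log axis), with 0.5 counts added to each gene and a grey line at a ratio of 1. The Postn to Tgfbi ratio lies below 1 in the 3 muscle libraries and above 1 in the 3 lymph node libraries, and the Ecm1 to Ecm2 ratio is lower in muscle without overlap.

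Tenascin-X, the product of Tnxb, binds collagen fibrils and spaces them. The gene lies on chromosome 17 from 34670535 to 34719815. Tnxb measured 2851, 2622 and 1589 CPM in muscle libraries 2, 3 and 4 and 1380.2, 1644 and 1700.4 CPM in lymph node libraries 1, 2 and 3. Muscle libraries 2 and 3 were above all lymph node libraries, whereas muscle library 4 fell within the lymph node range. With all libraries the log2 fold change was 0.58 ± 0.24 and was not called (edgeR adjusted p = 0.287, 95% interval 0.04 to 1.12). It was 0.79 ± 0.13 and was called when muscle library 4 was left out (edgeR adjusted p = 8.4e-04), a 1.73-fold difference. Of the 25-base words of its transcripts 11.5% also occur in other genes, chiefly in the partial copy Tnxa, which had 9 counts over all libraries.

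Tenascin-C, the product of Tnc (chromosome 4, 63959785 to 64047015), was near the limit of detection in both tissues. Its counts were 5, 34 and 2 in muscle libraries 2, 3 and 4 and 9, 10 and 5 in lymph node libraries 1, 2 and 3. That is 2.64, 26.1 and 5.38 CPM against 5.14, 4.30 and 2.28 CPM. Muscle library 3 thus held 34 of the 41 muscle counts, and its exact 95% Poisson interval of 18.1 to 36.5 CPM lay above the intervals of muscle library 2 (0.856 to 6.15 CPM) and of the 3 lymph node libraries, which reached at most 9.76 CPM. Muscle library 4 had only 2 counts and an interval of 0.651 to 19.4 CPM. These intervals cover counting error only and treat every count as independent. No marking of PCR copies is described, so they may be too narrow. With no filter on low counts the log2 fold change was 1.44 ± 0.70 (edgeR adjusted p = 0.539). It became -0.36 without muscle library 3 (adjusted p = 0.904) and 1.68 without muscle library 4, where it was called (adjusted p = 0.0253).

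Muscle library 3 also had the highest summed level of 8 tenocyte markers, at 459.5 CPM. The sums were 248 and 67.2 CPM in muscle libraries 2 and 4, and 60.0, 27.9 and 19.6 CPM in lymph node libraries 1, 2 and 3. In the other libraries Tnc had at most 10 counts, and its Poisson intervals overlapped. An order of its level among them therefore cannot be read. Of this list 4 genes were tested and 2 were called higher in muscle, beside 1.46% of all tested genes. These were the tendon and cartilage matrix genes Comp (log2 fold change 5.24, edgeR adjusted p = 0.00222) and Thbs4 (4.04, edgeR adjusted p = 0.00587). Comp measured 87.6, 178 and 32.3 CPM in muscle libraries 2, 3 and 4 and at most 4.55 CPM in lymph node, and Thbs4 107, 152 and 26.9 CPM and at most 8.16 CPM. The tendon membrane protein gene Tnmd was not called with all libraries (log2 fold change 2.79, edgeR adjusted p = 0.103). It measured 15.8, 37.7 and 2.69 CPM in muscle libraries 2, 3 and 4 and at most 6.01 CPM in lymph node. Without muscle library 4, Tnmd was called higher in muscle (3.09, edgeR adjusted p = 0.00172). The tendon proteoglycan gene Fmod was called in neither fit (0.74 and 1.13, edgeR adjusted p = 0.823 and 0.453). The tendon transcription factor gene Scx had at most 0.527 CPM in any library. The part of tendon cells in the Tnc level was not tested. The remaining tenascins, Tnn and Tnr, were also below the filter, at 4.10 CPM or less and 8.06 CPM or less in every library. The Tnc to Tnxb count ratio ran from 0.00102 to 0.0101, and the tissues overlapped (difference of mean log2 ratios 0.48, exact two-sided permutation test p = 0.70, and 0.35 with muscle library 4 left out). Of the tenascin genes, Tnxb was thus the one with substantial counts in both tissues.

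SPARC, also called osteonectin, binds collagen and helps it to be processed and secreted. Sparc lies on chromosome 11 from 55394500 to 55423183. It measured 6918, 4903 and 4505 CPM in muscle libraries 2, 3 and 4 and 8779.6, 6751 and 6872 CPM in lymph node libraries 1, 2 and 3. The tissues overlapped, because muscle library 2 reached lymph node levels. The log2 fold change of -0.46 ± 0.23 was not called (edgeR adjusted p = 0.404), and its 95% interval ran from -0.97 to 0.06. It was -0.34 with muscle library 4 left out (edgeR adjusted p = 0.233). Per exon length Sparc was the most abundant of the 9 genes in every library, at 1437 ± 342 RPKM in muscle and 1971 ± 300.4 RPKM in lymph node (SD, n = 3 each). It ranked 11 in both tissues among the 10687 tested genes with a known length.

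Hevin, the product of Sparcl1, shares with SPARC its collagen-binding and calcium-binding parts and is made by fibroblasts, endothelial cells and astrocytes. Sparcl1 (chromosome 5, 104079111 to 104113733) measured 659, 765 and 1164 CPM in muscle libraries 2, 3 and 4 and 755, 920.2 and 754 CPM in lymph node libraries 1, 2 and 3. Muscle library 4 was the highest of all and the other libraries were intermixed. The log2 fold change was 0.08 ± 0.23 (edgeR adjusted p = 0.923, 95% interval -0.44 to 0.61) and -0.19 ± 0.14 without muscle library 4 (adjusted p = 0.469, 95% interval -0.50 to 0.11). The 10 endothelial markers listed summed to 245 CPM in muscle library 4, the lowest of all, and to between 276 and 388 CPM elsewhere, most of it Tek (121 CPM there and 260.4 to 366 CPM elsewhere). The other 9 summed to 124 CPM in muscle library 4 and to between 14.8 and 22.3 CPM elsewhere, mainly from Pecam1 (59.1 CPM), Prox1 (29.6 CPM) and Lyve1 (24.2 CPM). Kdr, Egfl7, Flt1 and Emcn had 1 count each there. Cdh5 and Esam had 0 counts there, but at most 2 and 4 counts in any library. The part of endothelial cells in the Sparcl1 level of that library was not tested. The Sparcl1 to Sparc count ratio was 0.0953, 0.156 and 0.259 in muscle libraries 2, 3 and 4 and 0.086, 0.136 and 0.11 in lymph node libraries 1, 2 and 3, which overlap (exact two-sided permutation test p = 0.40). The difference of mean log2 ratios was 0.53 with all libraries and 0.17 with muscle library 4 left out.

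Fn1 lies on chromosome 1 from 71585520 to 71653200. It measured 6723, 5679 and 3319.8 CPM in muscle libraries 2, 3 and 4 and 7395, 7273 and 9101 CPM in lymph node libraries 1, 2 and 3. All muscle libraries were below all lymph node libraries, with muscle library 4 the lowest by a wide margin. The log2 fold change of -0.60 ± 0.27 was not called (edgeR adjusted p = 0.346, 95% interval -1.20 to 0.01). With muscle library 4 left out it was -0.36 ± 0.14 and again not called (edgeR adjusted p = 0.126, 95% interval -0.66 to -0.06). Per exon length fibronectin was the next most abundant after Sparc in 5 of the libraries, and in muscle library 4, at 284 RPKM, it was below Ecm1 and Sparcl1.

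**Figure D3:**
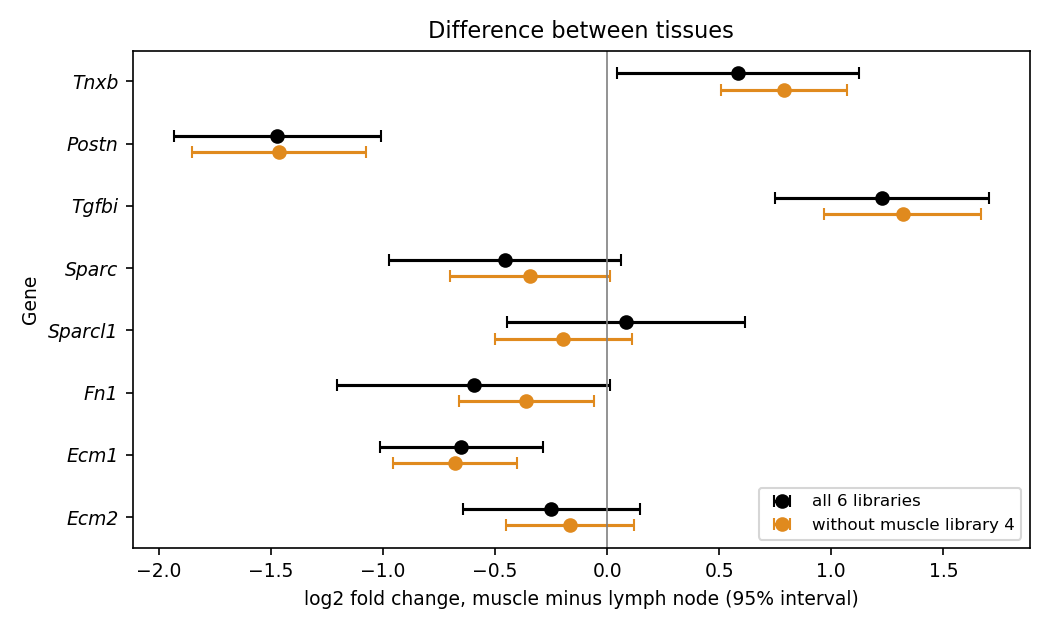
Log2 fold change, muscle minus lymph node, of the 8 tested genes with its 95% interval, over all 6 libraries (black) and without muscle library 4 (orange). Postn lies left and Tgfbi right of 0 in both fits, and leaving out muscle library 4 narrows every interval and moves Tnxb from 0.58 to 0.79.

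Ecm1 encodes a secreted glycoprotein that binds perlecan and other matrix proteins, and lies on chromosome 3 from 95734147 to 95739569. It measured 819, 758 and 825 CPM in muscle libraries 2, 3 and 4 and 1195, 1266 and 1306 CPM in lymph node libraries 1, 2 and 3. The spread within each tissue was small, and the gap between tissues exceeded it. The log2 fold change of -0.65 ± 0.16 was just short of the threshold with all libraries (edgeR adjusted p = 0.06, 95% interval -1.01 to -0.29). It was called by DESeq2 (-0.64, adjusted p = 0.0056) and limma-voom (-0.65, adjusted p = 0.0211), which called 6.34% and 5.82% of all tested genes. Without muscle library 4 edgeR called it as well (-0.68 ± 0.13, adjusted p = 0.00228), a 1.60-fold difference.

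The Ecm1 promoter window is shown for comparison with the Postn window, since both hold a TATA match close to the start site. A link between such matches and the levels of the genes was not tested. Capitals mark the same 4 motifs.
Ecm1, chr3:95739520-95739819, minus strand: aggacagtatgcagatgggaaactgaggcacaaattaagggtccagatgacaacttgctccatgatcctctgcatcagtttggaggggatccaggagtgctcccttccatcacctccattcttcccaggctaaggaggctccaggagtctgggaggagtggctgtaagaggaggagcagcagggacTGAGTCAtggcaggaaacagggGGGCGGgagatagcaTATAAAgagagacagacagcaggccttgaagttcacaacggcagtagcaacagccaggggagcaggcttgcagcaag
Its matches are an AP-1 motif that begins 64 bases before the start site, a GC box 42 bases before it and a TATA box 27 bases before it. The Tnxb window held an AP-1 match 55 bases before the start site and no TATA match, and the Ecm2 window a single GC box 87 bases before the start site. Tnc had 2 overlapping windows that held the same TATA match (126 and 205 bases before their start sites) and the same GC box (167 and 246 bases). Of the 9 genes 7 had a RefSeq promoter window, and Fn1 and Sparcl1 had none. The Sparc window (chromosome 11, 55420031 to 55420330, minus strand) held no match. It lies inside the gene and not at its GENCODE M21 5′ end at 55423183, so it is not printed.

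Ecm2 encodes a secreted leucine-rich repeat protein. It measured 306, 334 and 255 CPM in muscle libraries 2, 3 and 4 and 366, 362 and 341 CPM in lymph node libraries 1, 2 and 3. Muscle was lower without overlap, but by little: the highest muscle value, 334 CPM, was close to the lowest lymph node value, 341 CPM. The log2 fold change was -0.25 ± 0.17 (edgeR adjusted p = 0.592, 95% interval -0.64 to 0.15), and -0.16 with muscle library 4 left out (edgeR adjusted p = 0.529). The Ecm1 to Ecm2 count ratio was 2.68, 2.27 and 3.22 in muscle libraries 2, 3 and 4 and 3.26, 3.50 and 3.83 in lymph node libraries 1, 2 and 3. It did not overlap between tissues (difference of mean log2 ratios -0.39, exact two-sided permutation test p = 0.10, adjusted p = 0.20 over 4 pairs), though the nearest libraries of the tissues differed little. With muscle library 4 left out the difference was -0.52.

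Together the 9 genes made up 1.95%, 1.64% and 1.10% of all counts in muscle libraries 2, 3 and 4 and 1.95%, 1.83% and 1.98% in lymph node libraries 1, 2 and 3. Per exon length, which allows levels to be compared between genes, Sparc made up between 46.1% and 58.3% of their summed RPKM in every library. In muscle the order of mean RPKM was Sparc (1437), Fn1 (448), Ecm1 (318), Sparcl1 (294), Tnxb (193), Tgfbi (145), Ecm2 (52.6), Postn (19.1) and Tnc (1.46). In lymph node it was Sparc (1971), Fn1 (678), Ecm1 (498), Sparcl1 (276), Tnxb (129), Ecm2 (62.8), Tgfbi (62.3), Postn (53.1) and Tnc (0.502). The orders differed in the place of Tgfbi and Ecm2, whose lymph node means differed by less than their spread (SD 12.0 and 2.37 RPKM). Fn1, Ecm1 and Sparcl1 were separated in lymph node. In muscle they overlapped in level only through muscle library 4 (284, 327 and 396 RPKM). Muscle libraries 2 and 3 held 575 and 486 RPKM of Fn1, 325 and 301 of Ecm1, and 224 and 260 of Sparcl1. Sparcl1 overlapped Tnxb in muscle with or without muscle library 4. Tnxb overlapped Tgfbi in muscle only through that library, with 234 and 215 against 141 and 172 RPKM in muscle libraries 2 and 3. In lymph node Tgfbi, Ecm2 and Postn overlapped each other. Postn ranked 1710 among tested genes in muscle and 636 in lymph node, and Tgfbi 158 and 532.

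**Figure D4:**
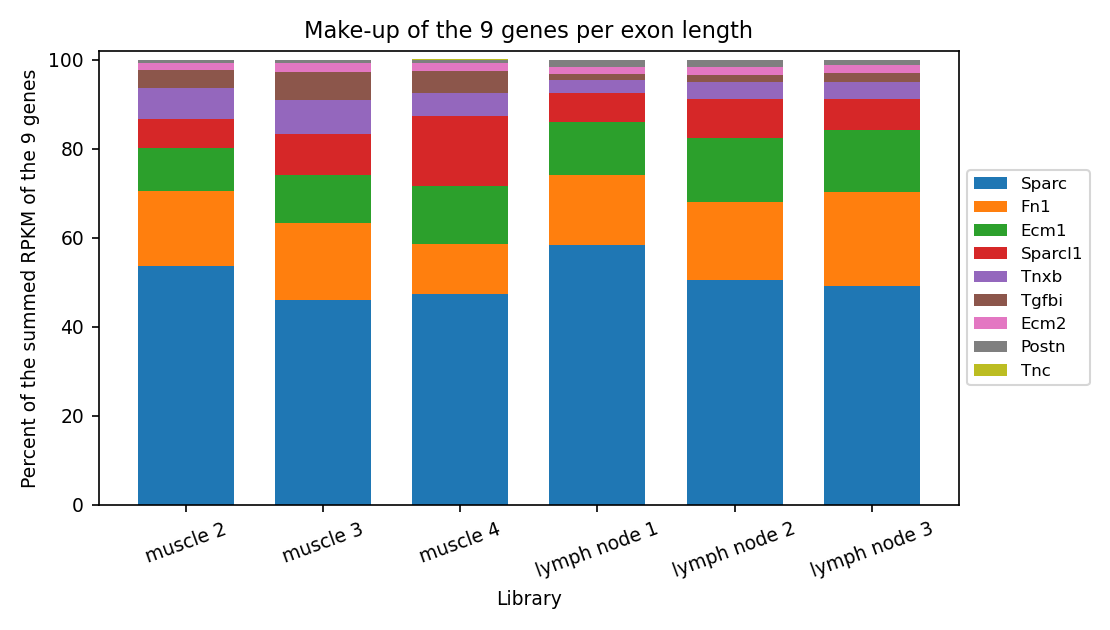
Percent of the summed RPKM of the 9 genes that each gene made up, by library. Sparc takes 46.1% to 58.3% in every library, Postn takes a larger share in lymph node (1.25% to 1.54%) than in muscle (0.57% to 0.749%), and Tgfbi and Tnxb take larger shares in muscle.

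Muscle library 4 differed from the mean of muscle libraries 2 and 3 by -0.90 (Fn1) to 0.71 (Sparcl1) on the log2 scale among the 8 tested genes, where the median size of this difference over all tested genes was 0.78. Postn (-0.03) and Ecm1 (0.07) were close to that mean in muscle library 4. Tnxb (-0.78) and Fn1 moved the most downward in this library.

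As a description of likeness, the profile of each gene over the 6 libraries (log2 CPM centred on its mean) was compared with those of tested genes of at least 50 mean CPM. The nearest to Sparc was the collagen gene Col1a2, with a root-mean-square difference of 0.06, followed by Tbcd and Sec24d (0.06 and 0.07). The nearest to Tnxb were Fam234a (0.06), the microfibril gene Mfap5 (0.08) and the fibroblast protease gene Fap (0.08). Postn was most like Tpm3 (0.11), Ctsh (0.16) and Ripk1 (0.18), and Tgfbi most like Camk2n1 (0.11), Adamtsl3 (0.14) and Pdzd2 (0.18). Those nearest to Sparcl1 were Manba, Rps15a and Thoc2, to Fn1 Dgcr2, Dhrs7 and Mpv17, to Ecm1 Efcab14, Tapbp and Rpl41, and to Ecm2 Virma, Ifngr1 and Arnt, all within 0.10.

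Among 16 relatives by family or gene cluster, 10 were tested, 2 were higher in muscle by edgeR and 8 were not called. Over all tested genes this fit called 1.46% higher and 2.86% lower. The median log2 fold change of the relatives was 0.10, beside 0.02 over all tested genes. Smoc2, a SPARC-family protein, measured 2170.0, 2371 and 2411 CPM in muscle libraries 2, 3 and 4 and 543, 564 and 592 CPM in lymph node libraries 1, 2 and 3. Its log2 fold change was 2.03 ± 0.17 (edgeR adjusted p = 4.45e-04), and it was called whichever single library was left out. Spock2, a SPARC-family proteoglycan, was higher by 1.32 on the log2 scale (edgeR adjusted p = 0.0331), a call lost when muscle library 3 or any single lymph node library was left out (adjusted p up to 0.218). Fstl1, another SPARC-family gene, was high in both tissues at 4500.5 ± 820.2 and 3689 ± 156 CPM (SD, n = 3 each, edgeR adjusted p = 0.576). The fibronectin-domain gene Fndc1 measured 1520.4 ± 529 and 1551 ± 296 CPM (adjusted p = 0.985), Vtn, which encodes the adhesive protein vitronectin, 36.7 ± 34.5 and 72.0 ± 24.8 CPM (0.64, with 0 counts in muscle library 4), and Podn, a leucine-rich repeat proteoglycan gene, 406 ± 58.3 and 366 ± 10.9 CPM (0.765). Smoc1 was at 7.74 CPM or less in every library. Of the SPARC-family genes tested, Smoc2 and Spock2 were thus called, and Sparc, Sparcl1, Fstl1 and Smoc1 were not.

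Receptors and binding partners of these proteins were listed as well. Of 16 receptors 12 were tested, and 1 was called higher and 1 lower in muscle (median log2 fold change 0.18). Over all tested genes 1.46% were called higher and 2.86% lower. Itga9, the integrin chain that binds tenascin-C, had a mean of 67.2 ± 18.7 CPM in muscle against 28.6 ± 6.50 CPM (SD, n = 3 each, log2 fold change 1.16, edgeR adjusted p = 0.0494). It missed the threshold when muscle library 2 or 3 or any lymph node library was left out (adjusted p up to 0.253), and with size factors computed as in DESeq2 (0.0505). Egfr, the epidermal growth factor receptor, which tenascin-C can also engage, measured 505 ± 74.1 against 1145 ± 92.8 CPM (-1.18, adjusted p = 0.00731). It missed the threshold when lymph node library 2 or 3 was left out (up to 0.0764). The fibronectin receptor chains Itga5 and Itgb1 were not called, at 116 ± 93.7 and 99.1 ± 19.2 CPM and at 335 ± 99.6 and 366 ± 149 CPM. Itga5 was at 190.4, 147 and 10.8 CPM in muscle libraries 2, 3 and 4, and without library 4 it was called higher in muscle (0.77, adjusted p = 0.0122). Without that library, 6 of 13 tested receptors were called higher and 2 lower, in a fit that called 4.79% of all tested genes higher and 7.58% lower.

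Of 20 matrix partners 19 were tested, and 1 was called higher and 1 lower (median log2 fold change -0.24). The shares over all tested genes were 1.46% higher and 2.86% lower. Fbln2, whose product fibulin-2 binds fibronectin, had a mean of 2218 ± 498 CPM in muscle against 823 ± 19.0 CPM (SD, n = 3 each, log2 fold change 1.43, edgeR adjusted p = 0.00506), a call lost without any 1 lymph node library (adjusted p up to 0.0715). Tnfaip6, which encodes a hyaluronan-binding protein of inflamed matrix that also binds fibronectin, measured 59.4 ± 8.44 against 539 ± 208 CPM (-3.16, adjusted p = 7e-04). Collagen genes of the list were not called, among them Col1a1 at 11079 ± 1820 and 14419 ± 3272 CPM. In this list 3 genes were higher and 4 lower in the same fit without muscle library 4.

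Of 18 regulators of transforming growth factor beta and actin signalling 15 were tested, and 2 were called higher (median log2 fold change 0.08). The share called higher over all tested genes was 1.46%. Ctgf, a matricellular gene that both signals can induce, measured 237, 232 and 438 CPM in muscle libraries 2, 3 and 4 and 61.1, 33.1 and 46.9 CPM in lymph node libraries 1, 2 and 3 (log2 fold change 2.67, edgeR adjusted p = 0.00211). The receptor gene Tgfbr1 was at 77.7 ± 27.0 against 35.1 ± 2.88 CPM (SD, n = 3 each, 1.20, edgeR adjusted p = 0.0386). Tgfbr1 missed the threshold when any library but muscle library 4 was left out (adjusted p up to 0.275). With muscle library 4 left out, Smoc2 (log2 fold change 2.00), Spock2 (1.00), Itga9 (0.96), Egfr (-1.08), Fbln2 (1.60), Tnfaip6 (-3.11), Ctgf (2.33) and Tgfbr1 (1.38) were all called, with edgeR adjusted p-values of at most 0.00959. Known targets of the growth factor thus lay on both sides, with Ctgf and Tgfbi higher and Postn lower in muscle. The ligand genes Tgfb2 and Tgfb3 were not called (adjusted p = 0.966 and 0.612), and Tgfb1 was at 3.16 CPM or less in every library.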

How the data were processed

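Per the labels' protocols, cDNA was primed on poly(A) tails, amplified by PCR without molecular identifiers being named, fragmented by transposon and read from both ends for 25 bases. The submitters' processing notes list STAR 2.5.4, featureCounts and the build mm10. Which annotation release was counted, whether strand was used and how multiple alignments were treated is not stated in them, so a gene and its antisense partner may share reads. The deposited values are raw counts per gene symbol, 1 column per library, used unchanged. No column was left unmatched. Muscle columns are numbered differently from the muscle titles and were used as group columns without a link to single samples.

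Counts were tested with edgeR 4.0.16 (R 4.3.3): filterByExpr (10823 genes), TMM scaling, glmQLFit and glmQLFTest on tissue over all 6 libraries. Fold changes are muscle minus lymph node, standard errors are the fold change over the square root of F, and 95% intervals use the fit's total degrees of freedom (residual plus prior). DESeq2 1.42.0 and limma 3.58.1 were alternatives. The procedure was tested on simulated data, where edgeR recovered 89% of 4-fold and 28% of 2-fold changes. It made 9 false calls among 10478 genes tested. A gene that was not called is therefore not shown to be equal between the tissues. RPKM used the union of GENCODE M21 exons (GRCm38, the assembly of mm10). Of 52997 symbols 93.1% matched by name, and all 9 genes did. Such lengths understate the level of a gene whose long isoforms are not made.

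The 9 genes and all lists were chosen with earlier results of these data known. Fits of Tnc without a filter, and alternatives for listed genes, were added after the data were seen. Named are all 9 genes, tested relatives, up to 4 called genes of each other list and the 3 nearest profiles of each gene among genes with official names. Itga5, Itgb1, Col1a1, the marker genes, Tgfb1, Tgfb2, Tgfb3, Tnn and Tnr were named in addition, after their values were seen. One gene of the regulator list is not reported here.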

Additional observations from a re-analysis of the deposited data

How the results depend on the processing

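Postn kept its call and direction in all alternatives run. The log2 fold change of Tgfbi was 1.12 and not called with muscle libraries 2 and 3 summed, and lay between 1.07 and 1.37 with 1 library left out. Tnxb, not called with all libraries, was called with library weights (limma-voom, 0.72), with muscle libraries 2 and 4 summed (0.717) or 3 and 4 summed (0.724) and without muscle library 4 (range 0.40 to 0.79 with 1 library left out). Ecm1 was called by DESeq2 (-0.636), limma-voom (-0.650) and limma-voom with library weights (-0.67), with muscle libraries 2 and 4 (-0.695) or 3 and 4 summed (-0.670) and without muscle library 4 (range -0.71 to -0.63). Tnc ranged from -0.36 to 1.92 with 1 library left out. Of the 9 genes, 2 were called with all libraries, 1 to 4 with 1 library left out, 4 with library weights, 1 with muscle libraries 2 and 3 summed and 4 with either other pair summed. Over all genes 468 of 10823 tested were called, and 142 of 11355 to 1391 of 11246 with 1 library left out. With no filter 945 of 39490 were called, and with library weights 1366 of 10823. With muscle libraries 2 and 3, 2 and 4, or 3 and 4 summed, the calls were 222 of 11904, 1435 of 11872 and 1266 of 11222. Why the counts move was not tested, other than that these fits hold fewer or differently weighted libraries or more genes. The uncalled fold change of Sparcl1 changed sign with no filter (-0.15), with library weights (-0.17), without muscle library 4 (-0.19) and with muscle library 4 summed with library 2 (-0.13) or 3 (-0.11).

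No paired analysis was made, because the sample labels give no pairing of muscle with lymph node libraries. The muscle columns could also not be linked to the numbered muscle titles. The 34 and fewer counts of Tnc per library limit what can be said of it, and 3 against 3 libraries cannot give an exact p under 0.10.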

Other observations

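Ecm2 is followed on chromosome 13 by Aspn, Omd and Ogn, genes of small leucine-rich proteoglycans, as the next 3 protein-coding genes by start position (GENCODE M21, GRCm38, Ecm2 from 49504810 and Ogn to 49624501). Cenpp, on the opposite strand, spans all of them (49464023 to 49652785). The fitted changes of the 4 genes had different signs. Aspn measured 886, 844 and 457 CPM in muscle libraries 2, 3 and 4 and 357, 436 and 387 CPM in lymph node libraries 1, 2 and 3 (log2 fold change, muscle minus lymph node, 0.90, edgeR adjusted p = 0.0972). It was called higher in muscle by DESeq2 (0.91, adjusted p = 0.0257), and by edgeR with muscle library 4 left out (1.13, edgeR adjusted p = 4.24e-05). Ogn measured 1196, 1298 and 645 CPM in muscle and 1545, 1546 and 1679 CPM in lymph node libraries in the same order (-0.60, edgeR adjusted p = 0.308), and Omd was low at 41.5 ± 17.3 and 52.1 ± 4.84 CPM (SD, n = 3 each, adjusted p = 0.797). The difference between the changes of neighbouring genes was not tested.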
